A study of Bos taurus with 40 samples.

Results

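56 genes of bovine muscle had nearly the same level in feed-restricted and continuously fed bulls late in the restriction and a lower level in the previously restricted bulls early in refeeding. They were chosen from the measured levels in counts per 1000000 gene counts (CPM). For each gene the ratio of the median CPM of restricted bulls to that of control bulls was taken, with 0.5 CPM added to both medians, on the log2 scale. A gene belonged if the absolute ratio was under 0.3 on day 120 of restriction, if the ratio was -0.6 or less on day 15 of refeeding, and if its mean over 40 libraries was at least 1 and under 1000 CPM. Of 24616 genes counted, 10959 lay in that range of expression and 56 of those met both conditions. The opposite rule, with a ratio of 0.6 or more on day 15, found 46 genes.

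The libraries came from muscle biopsies of male Holstein-Friesian cattle, a dairy breed. 10 control bulls ate without limit for the whole trial of 180 days. The other 10 received a restricted allowance for 125 days (period 1), set for a gain of 0.6 kg per day, and then ate without limit for 55 days (period 2). All bulls were fed 70% concentrate and 30% grass silage, and were biopsied on day 120 of period 1 and on day 15 of period 2, which gave 4 groups of 10 libraries. The same bulls were older at the second biopsy, so a change over time within a feeding group includes growth as well as the change of feed. The labels do not name the muscle or the age of the bulls. One protocol text in the labels gives these 10 bulls per feeding group and another gives 20, and the first was followed because title numbers 1 to 10 recur on both days. A library was taken to be 1 biopsy of 1 bull, and libraries with the same number in a feeding group were taken to be the same bull, and the counts by bull below rest on this reading.

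Cattle returned to full feed after a restriction are known to grow faster for a time than animals fed freely throughout, a response called compensatory growth. Skeletal muscle takes part in it through a higher turnover and deposition of protein and through the later refilling of its fat stores. A muscle biopsy holds muscle fibres together with fat cells, connective tissue, vessels and blood cells. The RNA of all of them is counted together, so fewer cells of a type and less RNA per cell cannot be told apart.

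The deposited tables identify genes by Ensembl identifiers. The sources used here do not pair these with gene names: 0 of the 24616 matched the reference table. The genes are therefore described by their levels, with no statement on their function, and the labelled tissue was not checked against marker genes. The 7 genes given by identifier were chosen after their values were seen.

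The genes were of ordinary abundance. Their mean level ran from 1.05 to 349.6 CPM with a median of 10.4 CPM, and the median of all genes in the range was 10.5 CPM. 27 genes were at 1 to under 10 CPM, 25 at 10 to under 100 CPM and 4 at 100 CPM or more. No gene had a library without counts. The lowest count of a gene in any library was 1 for the shallowest gene and 104 for the median gene. The shallowest library held 20.8 M gene counts (M stands for 1000000) and the deepest 32.97 M. 7 libraries stood apart from the other 33 in having under 12% of reads outside genes, 10.0% to 11.2% against 13.3% to 18.7%. 1 was a control and 2 were restricted libraries of day 120, and 3 were control and 1 a restricted library of day 15.

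By the rule, the day 120 ratios lay between -0.29 and 0.28 and the day 15 ratios between -1.41 and -0.60. The medians were -0.09 on day 120 and -0.73 on day 15. 33 genes were slightly below the control median on day 120 and 23 slightly above it. 5 genes had a day 15 ratio of -1 or less, 26 lay between -1 and -0.7, and 25 lay above -0.7. Over all genes in the range the median ratios were -0.11 on day 120 and -0.01 on day 15. With library sizes scaled by TMM (trimmed mean of M values, edgeR's scaling) these medians were -0.02 and 0.00, so the day 120 ratios from total counts carry a shift of about that size. The 3 genes just inside the day 15 limit had ratios of -0.605, -0.605 and -0.603, and the 3 just outside had -0.599, -0.599 and -0.596. In all, 144 genes in the range reached -0.6 on day 15. 68 of those already had a ratio of -0.3 or less on day 120, and 20 had one of 0.3 or more.

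**Figure D1:**
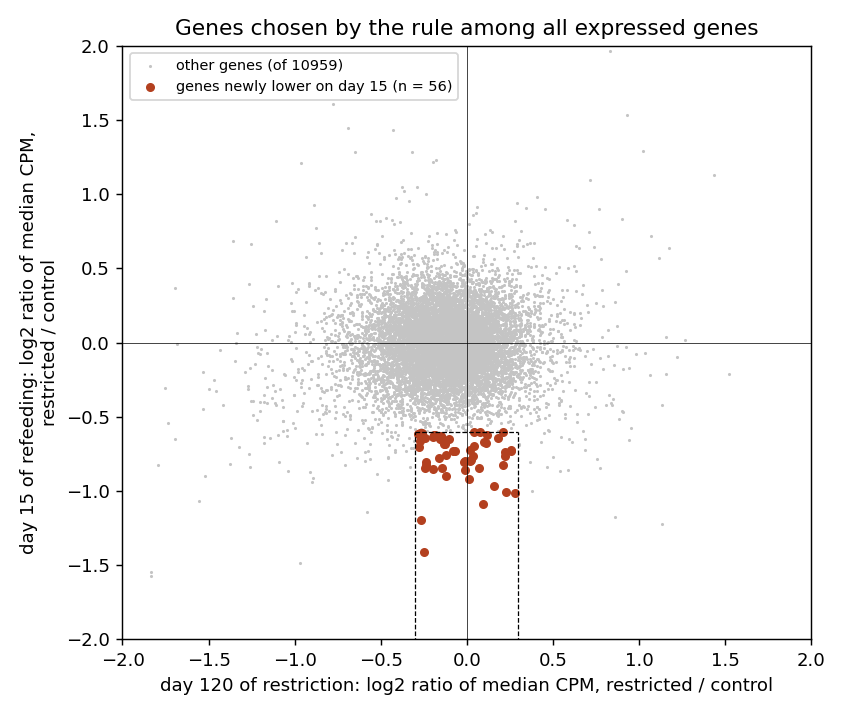
Each point is a gene at 1 to under 1000 mean CPM, with the log2 ratio of restricted to control medians on day 120 (horizontal) and on day 15 (vertical). The 56 chosen genes (red) fill the box cut by the rule (dashed) below -0.6 and between -0.3 and 0.3, most of them near its upper edge, and 17 genes lie beyond the axes.

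The 56 genes together made up a smaller share of the counts on day 15 in the restricted bulls. Their summed level in control bulls had a lowest, median and highest library of 1445, 1743 and 1954 CPM on day 120, and of 1440, 1869 and 2020 CPM on day 15. In restricted bulls the summed level was 1399, 1631 and 1976 CPM on day 120. On day 15 of refeeding it was 883, 1112 and 1476 CPM. The restricted libraries of day 15 thus lay below those of the other groups but for 1 that fell among the lowest of them. The most abundant gene supplied 22.0% of the sum.

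The difference was spread over all 10 restricted bulls of day 15, and it differed in size between them. The number of the 56 genes below the control median of the same day ran from 44 in bull 7 to 55 in bull 9. Taken over the genes, the median log2 ratio to the control median was -0.36 in bull 7 and -0.94 in bull 9, with a group median of -0.75. Between 9 and 36 genes were lower than in any control library of that day, again with bull 7 at the low end. On day 120 the same count was between 1 and 12 in the restricted bulls. Since the rule used these libraries, the day 15 values describe the choice and are no support for it.

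**Figure D2:**
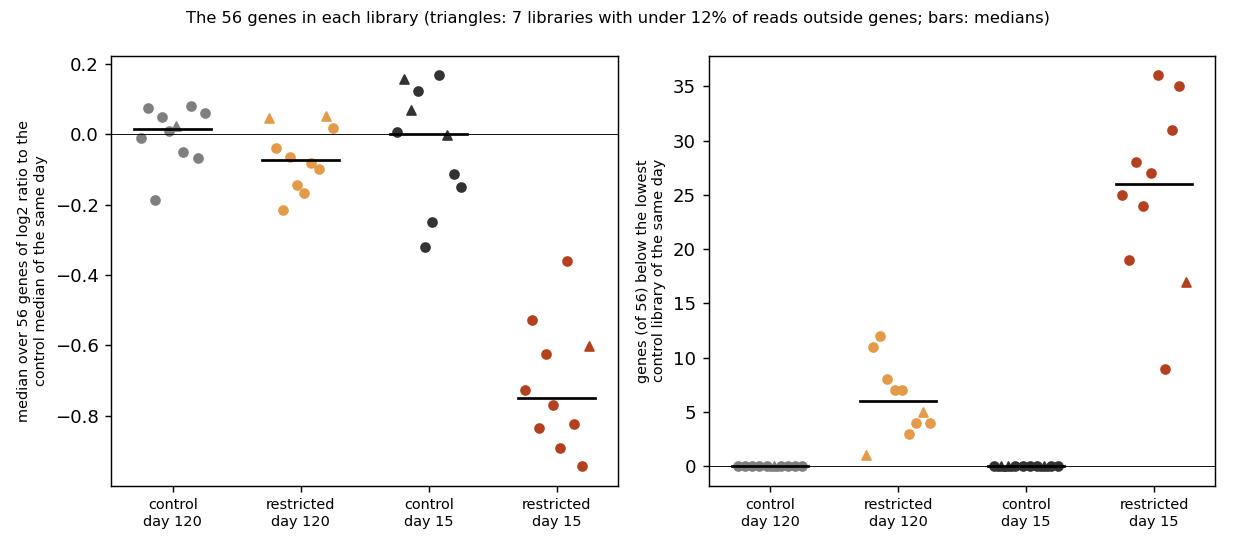
Left, the median over the 56 genes of the log2 ratio to the control median of the same day, for each library. Right, the number of genes below the lowest control library of the same day, which is 0 for every control library by construction. All 10 restricted libraries of day 15 lie at or below -0.36 on the left, and bull 7 has the fewest genes on the right with 9.

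Gene by gene, restricted and control libraries of day 15 overlapped for all 56 genes. 29 genes had every restricted library of day 15 below the control median, compared with 1 gene on day 120. 32 genes had 5 or more restricted libraries below the lowest control library, 3 genes had 9, and 9 genes had none. No share over all genes is given for these counts, so they describe the 56 genes alone. A complete separation with restricted below control occurred for 0 of the 56 genes on day 15, and for 0.0730% of all genes in the range. On day 120 it occurred again for 0 of the 56 genes, and for 0.401% of all genes in the range. The rule used the libraries of both days, so these counts are descriptions.

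All 56 genes entered a fit of 12753 genes with edgeR's quasi-likelihood test, and p-values were adjusted over all genes tested by the Benjamini-Hochberg method. On day 15, 37 of the 56 genes were called lower in restricted bulls at an adjusted p under 0.05, against 3.92% of all genes tested, and 0 were called higher, against 3.28%. The rule used this contrast, so nothing is read from those counts. The fitted log2 differences ran from -1.60 to -0.38 with a median of -0.69, while the median of all genes tested was -0.03. 19 of the genes chosen by their medians did not pass, with adjusted p from 0.0501 to 0.541. On day 120, 0 genes were called lower and 0 higher, beside 5.30% and 4.49% of all genes tested. At an unadjusted p under 0.05 in either direction the day 120 count was 3 genes, beside 24.3% of all genes tested. DESeq2 called 1 gene higher, against 5.86% of all genes. The rule required a small day 120 ratio in these libraries, so nothing is read from the day 120 counts either. The fitted day 120 differences had a median of 0.05 and reached from -1.18 to 0.58.

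The gene with the lowest day 15 ratio, ENSBTAG00000016194, was among the 4 most abundant. Its lowest, median and highest levels in control bulls were 126, 176 and 242 CPM on day 120 and 103, 184 and 213 CPM on day 15. In restricted bulls they were 88.0, 148 and 223 CPM on day 120 and 42.8, 68.9 and 183 CPM on day 15. 8 of 10 restricted libraries of day 15 lay below the lowest control library of that day, and the highest of the 10 lay at the control median. The fitted log2 difference was -1.06 ± 0.21 (SE) on day 15 with an edgeR adjusted p of 0.00205, and -0.08 ± 0.21 on day 120 with an edgeR adjusted p of 0.859.

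ENSBTAG00000047996 had the second lowest ratio at a far lower level. In control bulls its lowest, median and highest levels were 1.27, 2.16 and 3.55 CPM on day 120 and 2.29, 3.73 and 13.5 CPM on day 15. In restricted bulls they were 0.678, 1.71 and 2.86 CPM on day 120 and 1.02, 1.34 and 2.34 CPM on day 15. 9 of 10 restricted libraries of day 15 lay below the lowest control library. With 0.5 CPM added, the log2 ratio of the restricted medians, day 15 over day 120, was -0.26. The fitted log2 difference on day 15 was -1.60 ± 0.26 (SE), with an edgeR adjusted p of 0.000205. The fitted change over time in control bulls was 1.05 ± 0.25 and missed the threshold, with an edgeR adjusted p of 0.0615.

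These examples differ in which feeding group moved between the biopsies, and the 56 genes divided in the same way. The rule sets a limit on the difference between the change over time in restricted bulls and the change in control bulls. It sets none on how that difference is shared between them. The rule used these same medians, so a low restricted or a high control median on day 15 is favoured by the choice itself. The division is therefore a description. The change was taken as the log2 ratio of the medians, day 15 over day 120, and counted when it passed 0.3. 26 genes were lower on day 15 in restricted bulls only. 19 genes were higher on day 15 in control bulls only. 4 genes did both, 3 were lower in both groups, 1 was higher in both, and 3 passed 0.3 in neither. The restricted change was the larger of the 2 for 31 genes.

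Over the 56 genes the median change was -0.37 in restricted bulls and 0.22 in control bulls. The same medians over all genes in the range were 0.09 and -0.02. 49 genes had a lower restricted median on day 15 and 46 had a higher control median. Since the rule used these medians, nothing is read from these counts or from the distance to all genes. With TMM scaling the same division held 25 genes lower in restricted bulls only, 16 higher in control bulls only and 9 that did both.

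**Figure D3:**
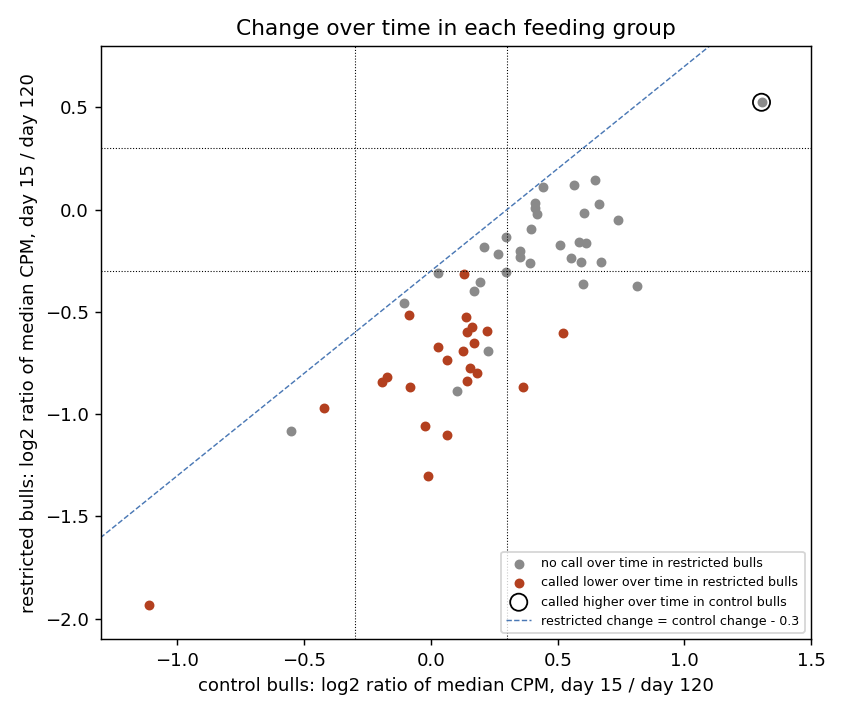
Each point is 1 of the 56 genes, with the change from day 120 to day 15 in control bulls (horizontal) and in restricted bulls (vertical), as log2 ratios of median CPM; dotted lines mark 0.3 in each direction. All points lie below the dashed line because the rule puts them there, but along it they range from a fall in restricted bulls only (26 genes) to a rise in control bulls only (19 genes).

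In restricted bulls, 23 of the 56 genes were called lower on day 15 than on day 120, against 9.34% of all genes tested, and 0 were called higher, against 9.81%. The day 15 and day 120 libraries behind these calls are the ones the rule used. The fitted log2 changes ran from -2.87 to 1.22 with a median of -0.46, and 50 of them were below 0. 19 of the 23 calls fell among the 26 genes that were lower in restricted bulls only, 2 among the genes that did both and 2 among those lower in both groups. The classes were cut on the same change in the same libraries, so nothing is read from this division. 17 genes were called lower both on day 15 against control and over time in restricted bulls. 20 were called on day 15 only, 6 over time only, and 13 in neither comparison. These joint counts have no share over all genes tested beside them. Both comparisons hold the restricted libraries of day 15 that the rule used, so nothing is read from the overlap.

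Followed from bull to bull, the fall in restricted animals was regular for some genes and absent for others. 15 genes were lower on day 15 in all 10 restricted bulls and 22 in at least 9, whereas 16 genes were lower in 5 or fewer. Bull 8 had 50 of the 56 genes lower on day 15 and bull 7 had 28, with a median of 40.5 over the 10 bulls. In the control group the number of genes that were higher on day 15 ran from 23 in bull 10 to 45 in bull 3, with a median of 38.5. 7 genes were higher in at least 9 control bulls. These counts by bull have no share over all genes beside them, so they describe the 56 genes alone.

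ENSBTAG00000004860 had the largest called fall in restricted bulls. Its lowest, median and highest levels there were 3.54, 5.85 and 34.5 CPM on day 120 and 0.487, 1.16 and 2.34 CPM on day 15. All 10 bulls were lower on day 15, and libraries of the 2 days did not overlap. In control bulls the levels were 1.44, 5.78 and 14.2 CPM on day 120 and 1.23, 2.40 and 14.7 CPM on day 15, so the control median fell too and the groups overlapped. The fitted log2 change was -2.87 ± 0.43 (SE) in restricted bulls, with an edgeR adjusted p of 5.21e-06, and -0.81 ± 0.39 in control bulls, with an edgeR adjusted p of 0.256. 1 library of day 120 stood at 34.5 CPM, and without it the restricted change was -2.36.

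ENSBTAG00000006729 had the next largest called fall. In restricted bulls its lowest, median and highest levels were 3.56, 6.80 and 14.4 CPM on day 120 and 1.41, 2.46 and 4.48 CPM on day 15. All 10 restricted bulls were lower on day 15, although the ranges met. In control bulls the levels were 2.39, 5.52 and 9.60 CPM on day 120 and 0.935, 5.48 and 7.40 CPM on day 15, with nearly the same median and 2 low libraries on day 15. The fitted log2 change in restricted bulls was -1.70 ± 0.27 (SE), with an edgeR adjusted p of 1.74e-05.

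Only 3 of the 56 genes had every restricted library of day 15 below every restricted library of day 120, beside 0.328% of all genes in the range. ENSBTAG00000004860 was one of them. The other 2 had restricted medians of 122 and 12.4 CPM on day 120 and of 67.6 and 6.80 CPM on day 15. The first of those was called lower on day 15 against control, with an edgeR adjusted p of 0.000132. The second was not, with an edgeR adjusted p of 0.153, and its control levels on day 15 reached down to 3.54 CPM.

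In control bulls, 1 of the 56 genes was called higher on day 15 than on day 120, against 0.0392% of all genes tested, and 0 were called lower. At an unadjusted p under 0.05 in either direction the count was 20 of the 56 genes, beside 19.1% of all genes tested. DESeq2 called 4 genes higher, against 0.706% of all genes. The control libraries of both days are ones the rule used, so nothing is read from these counts. The 19 genes whose control median alone rose past 0.3 had a median control change of 0.55 and a median restricted change of -0.10. 0 of the 19 were called over time in restricted bulls, and 10 were called lower on day 15 against control. The class limits and the rule used the same libraries, so nothing is read from the 0 or the 10. By the class limits their restricted change stayed within 0.3: it ran from -0.26 to 0.15, and 13 of the 19 had a slightly lower restricted median on day 15.

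The gene called higher in control bulls was ENSBTAG00000024492. Its lowest, median and highest levels in control bulls were 0.434, 1.00 and 3.23 CPM on day 120 and 1.58, 3.21 and 14.6 CPM on day 15. In restricted bulls they were 0.361, 0.880 and 1.47 CPM on day 120 and 1.18, 1.48 and 2.92 CPM on day 15. The level was higher on day 15 in all 10 restricted bulls and in 8 of 10 control bulls, and 2 control libraries of day 15 were far above the rest. The fitted log2 change was 1.80 ± 0.34 (SE) in control bulls, with an edgeR adjusted p of 0.0162. With a block for each bull, which compares each bull with itself, the adjusted p was 0.12 in edgeR and the call was lost. It was also lost without control library 4 of day 15, at 1.50 with an edgeR adjusted p of 0.0593, and without control library 7, at 1.61 with an edgeR adjusted p of 0.0622.

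**Figure D4:**
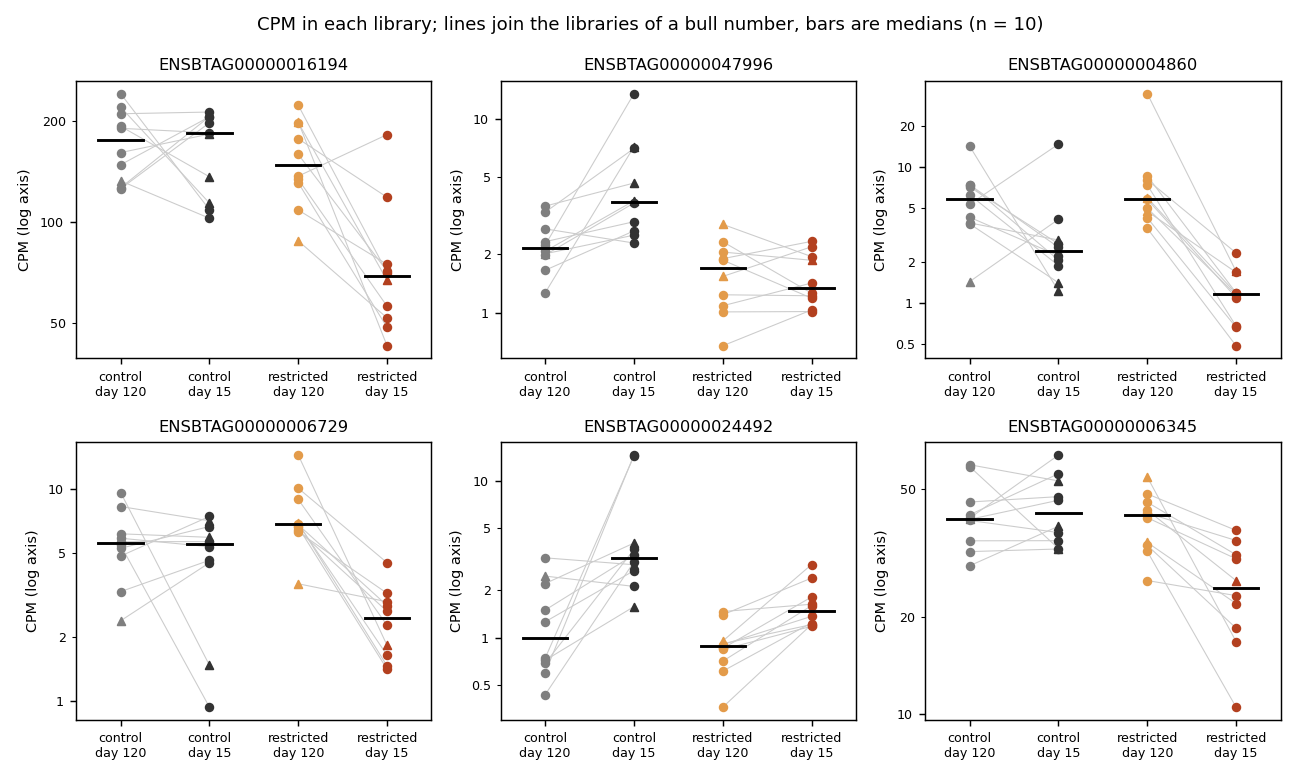
CPM (log axis) of 6 of the genes in every library, with grey lines joining libraries of the same bull number and bars at the medians (n = 10 per group; triangles are the 7 libraries with under 12% of reads outside genes). The fall in restricted bulls is seen in ENSBTAG00000004860 and ENSBTAG00000006729 in all 10 bulls, while ENSBTAG00000047996 and ENSBTAG00000024492 differ on day 15 with the control levels higher than on day 120.

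The difference between the 2 changes over time (interaction) was called lower for 25 of the 56 genes, against 3.35% of all genes tested, and higher for 0, against 3.02%. The rule fixes the sign of this difference for the ratios of medians, and nothing is read from the count. The fitted differences had a median of -0.80 and a highest value of 0.21, and 55 of the 56 were below 0. All 17 genes that were called lower on day 15 and over time in restricted bulls were among the 25. This overlap has no share over all genes tested beside it and is a description.

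The 56 genes were not uniform in their variation between bulls of a group. Deviations of log2(CPM + 0.5) from the group means were correlated for the 1540 pairs among the 56 genes over 40 libraries, which removes the group differences the rule used. The median correlation was 0.12, beside 0.15 over all pairs of genes in the range. 7.79% of the pairs were above 0.5, beside 16.8% of all pairs. Libraries share depth and tissue composition, and pairs of genes share libraries, so these values are descriptions. Without the 7 libraries that stood apart, the medians were 0.14 and 0.16, and 9.16% and 8.20% of pairs were above 0.5. The genes chosen by a common difference between group medians therefore showed about the same median correlation as all genes in the range.

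7 pairs, made of 11 genes, exceeded a correlation of 0.7 in the 40 libraries and in the 33. This count has no share over all pairs of genes in the range beside it. Whether such pairs were more frequent among the chosen genes was not tested. The closest pair was ENSBTAG00000006345 with ENSBTAG00000044059, at 0.89 over 40 libraries and 0.96 over 33. The first had lowest, median and highest levels in control bulls of 28.8, 40.3 and 59.4 CPM on day 120 and of 32.5, 42.1 and 63.7 CPM on day 15. In restricted bulls its levels were 25.9, 41.3 and 54.4 CPM on day 120 and 10.5, 24.6 and 37.1 CPM on day 15. All 10 restricted bulls were lower on day 15 for both genes of the pair. The CPM of the first divided by that of the second had medians of 1.42, 1.43, 1.37 and 1.44 in control day 120, restricted day 120, control day 15 and restricted day 15. The group medians of the quotient thus lay near each other, while over single libraries it ran more widely, from 0.909 to 1.82. The fitted day 15 differences were -0.82 ± 0.17 (SE; edgeR adjusted p 0.00354) and -0.96 ± 0.21 (SE; edgeR adjusted p 0.0046).

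**Figure D5:**
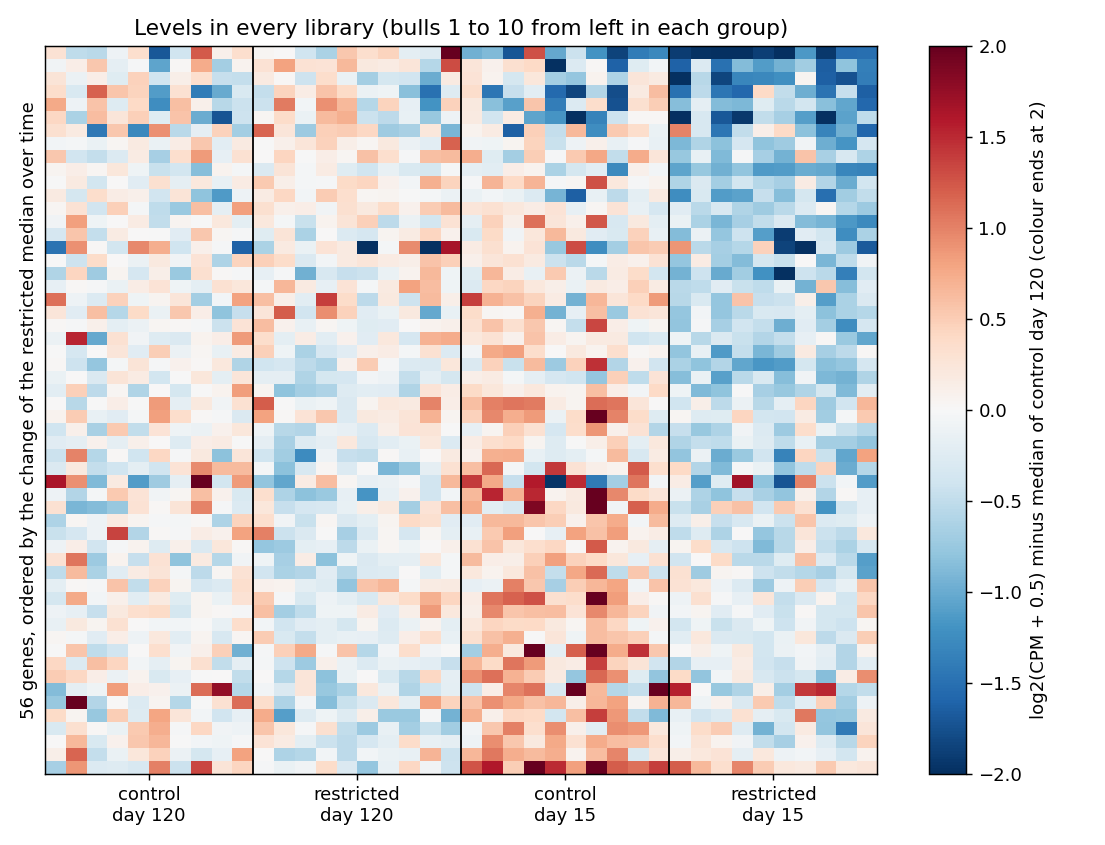
Log2(CPM + 0.5) of the 56 genes (rows) in the 40 libraries (columns), relative to the median of the control libraries of day 120, with colours ending at 2 in either direction. Genes near the top are lower than that median (blue) in restricted bulls on day 15, and genes near the bottom are higher than it (red) in control bulls on day 15.

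The spread within groups was wider at the median than over all genes. The rule used medians of these same libraries, and whether the choice favoured genes with a wide spread was not tested. The median within-group SD of log2(CPM + 0.5) was 0.39 for the 56 genes and 0.29 for all genes in the range in control bulls on day 120. The corresponding values were 0.38 and 0.28 in restricted bulls on day 120, 0.48 and 0.36 in control bulls on day 15, and 0.39 and 0.27 in restricted bulls on day 15. Over the 10 bulls of a feeding group, the correlation between both days had a median over the 56 genes of 0.12 in restricted and 0.09 in control bulls, beside 0.02 and 0.06 over all genes in the range. It was above 0.5 for 10 genes in restricted and for 6 genes in control bulls, counts given without a share over all genes.

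Relative to their groups, 35 of the 56 genes were higher in the 7 libraries with few reads outside genes, with a median log2 deviation of 0.15, while all genes in the range had a median of -0.16. More of them were control than restricted libraries on day 15, and the rule applied without the 7 libraries chose 75 genes, 33 of them among the 56. Without the 7 libraries all 56 day 15 ratios were still below 0, from -1.48 to -0.05 with a median of -0.72. 39 of the 56 genes still had a ratio of -0.6 or less, and 48 still had an absolute day 120 ratio under 0.3. Over the 33 libraries edgeR called 28 of the genes lower on day 15, against 2.77% of all genes tested. 21 were called lower over time in restricted bulls, against 14.6%, and 15 in the interaction, against 2.64%. In control bulls 2 were called higher over time, against 0.595%. With all 40 libraries and a term for the 7, the counts were 37 on day 15 against 5.16%, 25 over time in restricted bulls against 15.8%, 21 in the interaction against 4.25%, and 2 in control bulls against 0.204%. The division by direction became 22 genes lower in restricted bulls only, 15 higher in control bulls only and 10 that passed 0.3 in neither.

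The call of the most abundant of the 56 genes depended on the libraries used. It had lowest, median and highest levels on day 15 of 236, 377 and 565 CPM in control and of 192, 247 and 388 CPM in restricted bulls. The fitted log2 difference was -0.54 ± 0.15 (SE), with an edgeR adjusted p of 0.0264. Without the 7 libraries it was -0.31, with an edgeR adjusted p of 0.25. The call was also lost when single libraries of day 15 were left out. The edgeR adjusted p was 0.0713 without control library 2 and 0.0876 without control library 8, which are among the 7. It was 0.0517, 0.0587, 0.0541 and 0.0525 without restricted libraries 1, 3, 8 and 9, which are not.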

How the data were processed

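Messenger RNA of 40 muscle biopsies was sequenced in single-end libraries, per the labels' protocols. Per the submitters' processing notes, the tools were edgeR, HTSeq, TopHat and CASAVA 1.4, with the cattle assembly UMD3.1. Their settings are not stated there. The authors deposited whole-number counts for 24616 genes per library and a normalised signal, each gene's count multiplied by 1 constant per library. Only the counts were tested, and the deposited signal served as an alternative scaling. Rows naming no gene were left out. Every library pair within a group differed by more than sampling noise (smallest chi-square per gene 22.8).

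CPM is the count divided by the sum over genes. All 40 libraries entered 1 edgeR 4.0.16 fit (R 4.3.3) with 4 group means, TMM scaling and filterByExpr, which left 12753 genes. Standard errors were derived from the F statistics. The procedure was tested on simulated counts. Alternatives used DESeq2 1.42.0, limma 3.58.1, other scalings, filters and thresholds, a block for bulls, and leaving out libraries. A term for the 7 libraries together with the bull block was added after seeing the data.

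The title numbers repeat across both days. With a term for the 7 libraries, deviations of same-numbered libraries correlated at 0.18 to 0.40 in restricted bulls. In control bulls they correlated at 0.10 to 0.43, and all 10 pairs were above 0.1 in each group. Differently numbered libraries reached 0.17 in restricted and 0.33 in control bulls. The same number was the best match for all 10 restricted libraries of each day. It was so for only 5 control libraries of day 120 and 4 of day 15. Without the term, 7 and 6 pairs were above 0.1. The same number was then the best match for 7 restricted libraries of each day, and for 1 and 2 control libraries. Equal numbers were therefore read as the same bull, less surely among controls.

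The members, the lists and the comparisons were chosen with earlier results of these data known. The rule for named genes required a gene symbol and 44 lists of pathway and cell type genes were given as symbols. 0 of 24616 identifiers matched a symbol, so the rule named no gene and no list was applied. The genes named are those with the lowest day 15 ratios, the largest called changes over time and the closest correlation, at most 2 for each, chosen after their values were seen.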

Additional observations from a re-analysis of the deposited data

Results flagged for a closer look

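40 groups of 10 libraries were examined: 4 for each of the 7 named genes and of the 2 most abundant ones, and 4 for the summed level of the 56 genes. In 5 of them 1 library stood far above the other 9, where chance gives about 1 in 20 groups. That rate takes no account of the choice of the genes by their values, so nothing is read from the 5. For ENSBTAG00000004860 the library far above the rest was restricted library 10 of day 120. It had 34.5 CPM where the next had 8.58 CPM. The same gene had control library 8 of day 120 at 14.2 CPM, next to 7.42 CPM, and control library 4 of day 15 at 14.7 CPM, next to 4.13 CPM. ENSBTAG00000047996 stood at 13.5 CPM in control library 7 of day 15, where the next library had 7.18 CPM. ENSBTAG00000044059 stood at 50.0 CPM in restricted library 9 of day 120, next to 33.5 CPM.

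For 6 of the named genes edgeR's interaction test called a difference between the restricted and control changes over time, in the direction the rule fixes. The rule and the choice of these genes used the same libraries, so nothing is read from these calls. The log2 differences of the changes were -2.06 for ENSBTAG00000004860 (edgeR adjusted p 0.0206), -1.49 for ENSBTAG00000006729 (edgeR adjusted p 0.0115) and -1.22 for ENSBTAG00000047996 (edgeR adjusted p 0.0348). They were -0.98 for ENSBTAG00000016194 (edgeR adjusted p 0.0335), -0.84 for ENSBTAG00000006345 (edgeR adjusted p 0.0288) and -1.02 for ENSBTAG00000044059 (edgeR adjusted p 0.0297). For the remaining named gene, ENSBTAG00000024492, the difference was -1.03 and was not called (edgeR adjusted p 0.204).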

How the results depend on the processing

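The rule itself gave 52 genes with TMM scaling (38 shared with the 56), 53 with DESeq2 factors (37 shared) and 54 with the authors' values (38 shared), and 35 genes met it under all 4 scalings. Means in place of medians gave 85 genes, of which 26 were shared. With 0.1 CPM added to the medians in place of 0.5 the rule gave 79 genes (54 shared), and with 1 CPM it gave 45 (43 shared). A day 15 limit of -0.5 gave 120 genes, one of -0.7 gave 31, and a day 120 limit of 0.2 gave 36. Leaving out 1 library gave 51 to 74 genes, and 23 of the 56 were kept in all 40 such sets. Of the 56, edgeR called 19 lower on day 15 at an adjusted p under 0.01, and 26 to 42 when 1 library was left out. The count over time in restricted bulls stayed at 22 to 25 and that on day 120 at 0 to 0 without 1 library. The interaction count was 7 at an adjusted p under 0.01, 15 without the 7 libraries, and 16 to 28 without 1 library, with 16 when control library 2 of day 15 was left out. The control count over time of 1 became 0 at an adjusted p under 0.01 or with a factor for the leading number in the library codes. It became 2 with DESeq2 factors, a mean level of at least 1 CPM, a term for the 7 libraries or their removal, and 4 at an adjusted p under 0.1 or in DESeq2. Without 1 library it ran from 0 to 6. With bull as a replicate block it was 0, also with the term added, while 26 genes were called over time in restricted bulls and 22 in the interaction. The block changed no other count by over 1.5 times. The share of all genes called also moved with the setting. Over time in restricted bulls it was 9.34% in the main fit and 14.6% without the 7 libraries. Where no such share is given, the count of a setting cannot be set against all genes. The cause of these changes was not tested. The genes nearest to 1 CPM rest on few counts in single libraries, down to 1 count for the shallowest gene.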
